A study of Mus musculus with 12 samples.

Results

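Myostatin, the receptors that bind it, the SMAD proteins that carry its signal, its inhibitor follistatin and a pair of feedback inhibitors were followed in RNA-Seq profiles of mouse triceps brachii muscle. The 10 genes were chosen by symbol (Mstn, Acvr2a, Acvr2b, Acvr1b, Tgfbr1, Fst, Smad2, Smad3, Smad7 and Pmepa1), and all 10 were among the 10187 genes of the expression table. With the loss of Mstn itself, Pmepa1 was lower in the myostatin-reduced mice. Smad7, a low-count gene tested apart, was also lower, but in active mice its genotype groups overlapped. The receptor gene Acvr1b was lower in mice that ran on wheels, over both genotypes. The genes of the signal carriers Smad2 and Smad3 passed no test in either comparison.

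Myostatin is a secreted ligand of the TGF-beta family that muscle fibres make and that restrains muscle growth. It binds the type II activin receptors, encoded by Acvr2a and Acvr2b, which recruit and activate a type I receptor, encoded by Acvr1b or Tgfbr1. The type I receptor phosphorylates SMAD2 and SMAD3, which join SMAD4, enter the nucleus and regulate target genes. Smad7 and Pmepa1 are induced by SMAD signalling in many cell types and their products dampen it, while follistatin, encoded by Fst, binds myostatin and activins outside the cell and keeps them from their receptors.

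The profiles came from male C57/BL6 mice, with 3 mice in each of 4 groups: inactive wild-type (IW), active wild-type (AW), inactive myostatin-reduced (IM) and active myostatin-reduced (AM). From 4 months of age, tamoxifen was fed at 0.025% of the chow for 6 weeks in total, and every one of the 12 mice had it. Tamoxifen activated Cre recombinase, and it depleted myostatin in the mice whose Mstn exon 3 was floxed, that is, flanked by sites at which Cre removes DNA. The promoter that drove Cre and whether the wild-type mice carried Cre were not given in the sources used here, so the cells in which the exon was removed are not known from them. At 6 months of age the active mice moved to individual cages with running wheels for 12 weeks, so that running and single housing cannot be told apart.

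Values are normalized read counts, scaled by the authors between samples but not divided by gene length. Of the values under 5, 88.5% to 91.2% per mouse were multiples of the worth of 1 read, from 0.0770 to 0.105 normalized reads. This put the reads counted in the 10187 genes at an estimated 9023370 to 12184054 per mouse, which is not the full sequencing depth. Marker genes of fast muscle fibres summed to between 148400 and 231600 normalized reads in every mouse, whereas those of slow fibres summed to between 73.2 and 1773. The slow-fibre sum spread most in the IW, AW and AM mice (84.5 to 1329, 142 to 1773 and 111.5 to 1303) and least in the IM mice (73.2 to 103.8). Endothelial markers summed to between 242 and 256 in the IM mice and between 269 and 479 in the others. Of the 6 endothelial markers, 3 were higher and 0 lower with activity at an adjusted p under 0.05 in limma (median log2 change 0.44). Of all genes tested, 7.99% were higher and 6.51% lower with activity at that threshold. The part of these shifts in the results below was not tested, except where a value adjusted for the slow-fibre score is given. In whole muscle, fewer cells of a type and less RNA per cell cannot be told apart.

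The Mstn gene occupies chr1:53118507-53124923 on the plus strand of build NCBIM37 (mm9), with 3 annotated exons. The floxed exon 3 spans 53123095 to 53124923, and its 1829 bases make up 68.2% of the exon length and 33.5% of the coding length. Its start is shown because it is the first stretch of the transcript that a deleted copy cannot carry. The last 30 bases of exon 2 (chr1:53121071-53121100) are in lower case and the first 90 bases of exon 3 (chr1:53123095-53123184) in capitals.
Mstn, exon 2 end and exon 3 start: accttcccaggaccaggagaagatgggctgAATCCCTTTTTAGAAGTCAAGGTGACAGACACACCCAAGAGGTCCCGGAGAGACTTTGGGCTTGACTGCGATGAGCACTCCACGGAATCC

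**Figure D1:**
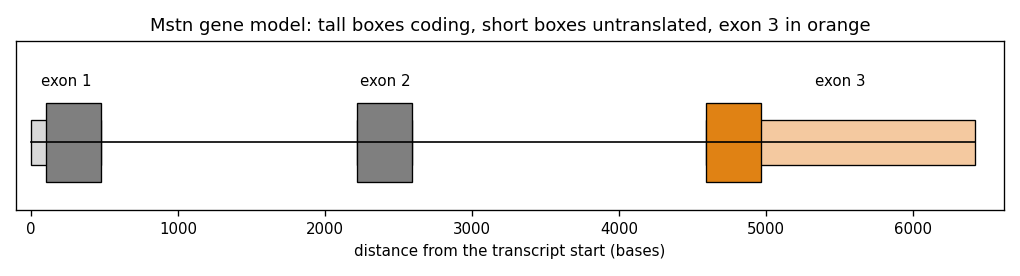
Gene model of Mstn, drawn by distance from the transcript start in bases, with coding sequence as tall boxes and untranslated sequence as short boxes. Exon 3, in orange, is the floxed exon and holds 1829 of the exon bases, of which 378 are coding.

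The ligand most like myostatin in sequence is encoded by Gdf11, so the transcripts were compared to see whether a read of one could be counted for the other. The longest run of identical bases between the transcripts was 12 bases, against a read length of 65 bases. Among the other related genes, the longest identical run was 14 bases between Acvr2a and Acvr2b, 17 between Acvr1b and Tgfbr1 and 23 between Smad2 and Smad3.

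Myostatin mRNA fell steeply in the floxed mice but did not disappear. Mstn was at 79.7, 138 and 131 normalized reads in the IW mice and at 110.3, 90.1 and 80.8 in the AW mice. It was at 18.3, 17.2 and 21.6 in the IM mice and at 16.1, 8.70 and 13.5 in the AM mice. Every floxed mouse was thus below every wild-type mouse, and the lowest value still rested on an estimated 113 reads, far above a floor of 3 reads. The mean was 84.9% lower in the 6 floxed mice (15.9 ± 4.42 SD) than in the 6 wild-type mice (105 ± 25.5 SD). On the log2 scale of the value plus 1, used for all changes below, the difference was -2.66 (SE 0.158, adjusted p = 1.29e-06 in limma). It was -2.51 in inactive mice and -2.81 in active mice, where 1.13% and 0.11% of the genes tested were called lower. The table counts reads per gene, not per exon, so reads from undeleted copies and reads from exons 1 and 2 of deleted copies cannot be told apart.

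Within each genotype the active mice tended to the lower Mstn values, but this difference did not pass the test with all mice weighted equally. The wild-type groups overlapped, while all 3 AM mice were below all 3 IM mice, a pattern seen downward in 12.7% of all genes. The change was -0.28 in wild-type mice (adjusted p = 0.62 in limma) and -0.58 in myostatin-reduced mice (adjusted p = 0.128 in limma). Without 1 mouse at a time the latter was -0.75 to -0.34 (adjusted p up to 0.449 in limma), and it passed only without AM mouse 1 (adjusted p = 0.0477 in limma). Over both genotypes the change with activity was -0.43 (unadjusted p = 0.0185 and adjusted p = 0.0886 in limma). Leaving out IW mouse 1, the wild-type mouse with the lowest Mstn, gave -0.55 (adjusted p = 0.0202 in limma), and leaving out AM mouse 1 gave -0.52 (adjusted p = 0.0389 in limma). Over all 12 fits that each left out 1 mouse this change was -0.55 to -0.31, with adjusted p up to 0.203 in limma. With sample weights the change was -0.48 (adjusted p = 0.0262 in limma), and with the slow-fibre score as a covariate it was -0.18 and not called. Over the settings that kept all mice, the adjusted p went up to 0.481 in limma.

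**Figure D2:**
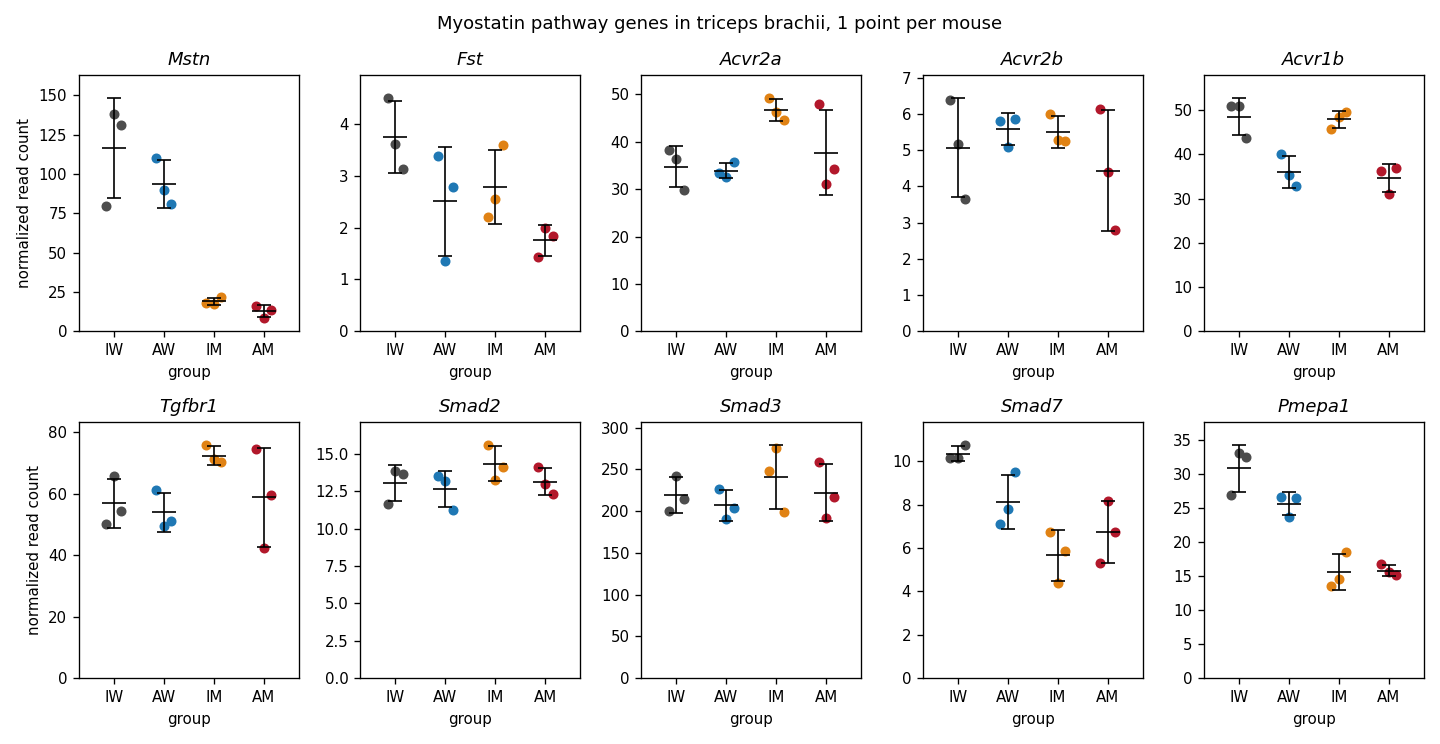
Normalized read count of each of the 10 genes (vertical axis, from 0, own scale per gene) in the 4 groups of 3 mice, with points for mice and black bars for the mean ± SD. Mstn and Pmepa1 separate the wild-type (IW, AW) from the myostatin-reduced (IM, AM) mice without overlap, and Acvr1b separates the inactive (IW, IM) from the active (AW, AM) mice.

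Pmepa1, whose product binds SMAD2 and SMAD3 and limits their activation, was the other gene of the 10 to separate the genotypes completely. It was at 26.9, 33.1 and 32.5 normalized reads in the IW mice and at 26.6, 23.7 and 26.5 in the AW mice. The IM mice had 13.6, 14.6 and 18.5, and the AM mice 16.8, 15.6 and 15.1. In the mean, myostatin-reduced mice were 44.4% lower (15.7 ± 1.75 SD, n = 6, against 28.2 ± 3.74 SD in wild-type mice, n = 6). This was a log2 difference of -0.80 (SE 0.0816, 95% interval -0.982 to -0.628, adjusted p = 0.0003 in limma).

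The Pmepa1 difference was 49.5% in inactive mice (log2 -0.95, adjusted p = 0.00173 in limma) and 38.2% in active mice (log2 -0.66, adjusted p = 0.0412 in limma). The first difference kept its call without any 1 mouse. The call in active mice was lost in 10 of the 12 fits that each left out 1 mouse (all but those without IW mouse 1 or IM mouse 3), with adjusted p up to 0.213, although the log2 difference stayed between -0.72 and -0.63. It was also lost with sample weights (log2 -0.66, adjusted p = 0.0536 in limma). The interaction was 0.29 (95% interval -0.0677 to 0.64, adjusted p = 0.89 in limma), so the genotype difference was not shown to depend on activity. All IW mice were above all AW mice, as for 7.13% of all genes, while IM and AM overlapped, and the change with activity was -0.11 (adjusted p = 0.381 in limma).

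Of the 7 genes with a mean of at least 10 normalized reads, which entered the fit, Mstn and Pmepa1 were thus called lower with genotype, and 0 were called higher. Among all 7247 genes in that fit, 2.21% were called lower and 3.57% higher. Wild-type and myostatin-reduced mice did not overlap, with the latter lower, for 1.15% of the genes in the fit.

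Smad7, the inhibitory SMAD that blocks the type I receptors, was a low-count gene and its mean of 7.72 kept it out of that fit. It was at 10.2, 10.2 and 10.8 normalized reads in the IW mice and at 7.10, 7.78 and 9.52 in the AW mice. The IM mice had 6.72, 4.37 and 5.88, and the AM mice 5.29, 8.16 and 6.73. Each value rested on an estimated 48 to 120 reads. The inactive groups were apart without overlap, as for 11.8% of all genes downward, the active groups overlapped, and the IW mice were above every other mouse.

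Over both activity levels Smad7 was 33.0% lower in myostatin-reduced mice (6.19 ± 1.32 SD against 9.24 ± 1.46 SD). The log2 difference was -0.52 (p = 0.015, two-sided exact permutation within activity levels, unadjusted, where 0.005 is the smallest p possible). That test gave p under 0.05 with a lower value for 5.75% of the 2940 genes under a mean of 10. Without the filter on low values, limma gave Smad7 an adjusted p of 0.0241 and called 1.54% of all genes lower. In that fit the difference was -0.79 in inactive mice (adjusted p = 0.0324 in limma, with 0.854% of all genes called lower) and -0.25 in active mice (adjusted p = 0.631 in limma), with an interaction of 0.54 (95% interval 0.0358 to 1.04, adjusted p = 0.9 in limma). The interval of the interaction left out 0, but its adjusted p did not pass, as for all genes.

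**Figure D3:**
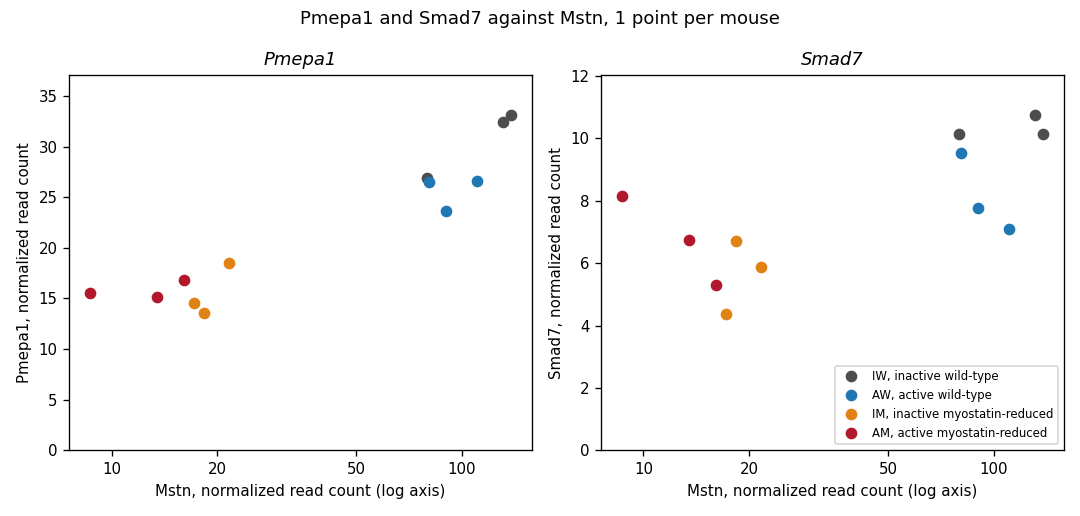
Pmepa1 (left) and Smad7 (right), in normalized read counts, against Mstn (normalized read count, log axis), with 1 point per mouse coloured by group. Pmepa1 falls into 2 levels that follow the genotype, 13.6 to 18.5 and 23.7 to 33.1, whereas for Smad7 the AM mice (5.29 to 8.16) reach into the range of the AW mice (7.10 to 9.52).

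Acvr1b, the type I receptor through which myostatin and activins signal in many cells, followed activity and not genotype. The inactive mice had 51.0, 50.9 and 43.6 normalized reads in IW and 45.9, 48.6 and 49.5 in IM. The active mice had 40.1, 35.3 and 32.9 in AW and 36.3, 31.0 and 36.8 in AM. Every active mouse was below every inactive mouse, and the genotypes overlapped at both activity levels. The mean was 26.6% lower in active mice (35.4 ± 3.17 SD, n = 6) than in inactive mice (48.2 ± 2.94 SD, n = 6), a log2 change of -0.44 (SE 0.0666, 95% interval -0.583 to -0.294, adjusted p = 0.0019 in limma).

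The Acvr1b difference had nearly the same size in both genotypes, 25.6% in wild-type and 27.6% in myostatin-reduced mice. On the log2 scale these were -0.42 (adjusted p = 0.0846 in limma) and -0.46 (adjusted p = 0.0149 in limma), the latter in a comparison that called 2.53% of genes lower, and their difference was -0.04 (95% interval -0.33 to 0.249, adjusted p = 0.97 in limma). The call in myostatin-reduced mice was lost without IM mouse 2, IM mouse 3 or AM mouse 2 (adjusted p = 0.0588, 0.0646 and 0.0793 in limma). That in wild-type mice was gained without AW mouse 1 (adjusted p = 0.0292 in limma) and with sample weights (log2 -0.47, adjusted p = 0.013 in limma). Without 1 mouse at a time the wild-type change was -0.49 to -0.36, with adjusted p up to 0.377 in limma. The change over both genotypes kept its call without any 1 mouse, between -0.48 and -0.40. The slow-fibre score, the mean log2 deviation of the slow-fibre markers, moved against Acvr1b (r = -0.61 over 12 mice), and with it as a covariate the change over both genotypes was -0.37 (adjusted p = 0.0119 in limma). In myostatin-reduced mice alone the covariate gave -0.37 and ended the call (adjusted p = 0.0734 in limma). The genotype difference of Acvr1b was -0.03 (95% interval -0.177 to 0.112, adjusted p = 0.82 in limma).

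Acvr1b was the only one of the 7 genes in the fit to be called with activity, where 6.51% of all genes in the fit were called lower and 7.99% higher. Active and inactive mice did not overlap, with the active mice lower, for 1.20% of the genes in the fit.

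The other type I receptor, Tgfbr1, which also serves the TGF-beta ligands, and the type II receptor Acvr2a both had their highest group mean in the inactive myostatin-reduced mice, as did Smad2 and Smad3, without a difference that passed the test with all mice. Acvr2a was at 38.2, 36.3 and 29.9 normalized reads in IW and at 33.4, 32.6 and 35.7 in AW. It was at 49.2, 46.3 and 44.6 in IM and at 48.0, 31.0 and 34.2 in AM. The IM mice were above all wild-type mice, and AM mouse 1 was as high as the IM mice while the other two AM mice were in the wild-type range.

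In inactive mice Acvr2a was 34.3% higher in the floxed group without overlap, as for 11.7% of all genes upward, but this difference did not pass the test (adjusted p = 0.13 in limma). Over both activity levels the genotype difference of Acvr2a was 0.27 (95% interval 0.0661 to 0.482, adjusted p = 0.116 in limma). It did not pass the test with all mice. It passed in 1 of the 12 fits that each left out 1 mouse, that without AM mouse 2 (0.34, adjusted p = 0.048 in limma). Over those fits it was 0.18 to 0.34, with adjusted p up to 0.209 in limma. The change with activity was -0.18 (adjusted p = 0.233 in limma), and without AM mouse 1 it was -0.27 (adjusted p = 0.0217 in limma). Over the same fits the activity change was -0.27 to -0.11, with adjusted p up to 0.465 in limma.

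Tgfbr1 had 50.2, 65.8 and 54.4 normalized reads in the IW mice and 61.1, 49.5 and 51.1 in the AW mice. Its values were 75.8, 71.1 and 70.1 in the IM mice and 74.5, 42.3 and 59.5 in the AM mice. Again the IM mice were above every wild-type mouse, by 27.4% in the mean against IW (adjusted p = 0.299 in limma), and the AM mice spread from below the wild-type range to the level of IM. The genotype difference was 0.22 (95% interval -0.0313 to 0.475, adjusted p = 0.288 in limma). Without AM mouse 2, the mouse with the lowest Tgfbr1, it was 0.33 (adjusted p = 0.0467 in limma). Over all 12 fits that each left out 1 mouse it was 0.13 to 0.33, with adjusted p up to 0.489 in limma. The activity change was -0.20 (95% interval -0.454 to 0.0521, adjusted p = 0.265 in limma). Tgfbr1 moved against the slow-fibre score (r = -0.75 over 12 mice, and -0.61 with the group means taken off, where Mstn had -0.70). With the score as a covariate its genotype difference was 0.11 and not called. Over the settings that kept all mice, its adjusted p went up to 0.601 in limma.

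Acvr2b, the type II receptor best known for binding myostatin, had group means from 4.44 to 5.58 normalized reads and no difference that passed a test. The IW mice had 6.38, 5.17 and 3.65, the AW mice 5.80, 5.08 and 5.87, the IM mice 6.01, 5.27 and 5.24, and the AM mice 6.13, 4.39 and 2.79. All groups overlapped, on 29 to 74 estimated reads a mouse. The genotype difference was -0.10 (p = 0.62) and the activity change -0.08 (p = 0.67), both in the exact permutation test. In limma without the filter on low values, the 95% intervals were -0.422 to 0.225 and -0.405 to 0.242.

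Fst, the extracellular inhibitor, had the lowest counts of the 10 genes, 13 to 50 estimated reads a mouse. The wild-type mice had 4.49, 3.60 and 3.13 normalized reads (IW) and 3.38, 1.35 and 2.78 (AW). The myostatin-reduced mice had 2.21, 2.55 and 3.58 (IM) and 1.43, 2.00 and 1.83 (AM). All AM mice were below all IM mice, as for 12.7% of all genes, and the wild-type groups overlapped. The mean was 34.7% lower in active mice (2.13 ± 0.799 SD against 3.26 ± 0.819 SD, n = 6 each). The log2 change was -0.46 (p = 0.01, two-sided exact permutation, unadjusted), where 4.25% of the genes under a mean of 10 were lower with p under 0.05. Every gene of the table had a highest group mean of at least 3.0, and of the Fst means only that of IW (3.74) reached it. Lower Fst values outside the IW group are therefore not independent of how the gene came into the table. Without IW mouse 1 the log2 change was -0.40 with p = 0.05 in the same exact test, and limma without the filter gave an adjusted p of 0.0849. The genotype difference of Fst was -0.32 (p = 0.09, exact permutation), and without AW mouse 2 it was -0.45 (p = 0.015, exact permutation). Without 1 mouse at a time it was -0.45 to -0.23, with p up to 0.2 in the same exact test.

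The genes of the receptor-activated SMADs varied little. Smad3 was at 200.4, 242 and 214 normalized reads in IW and at 227, 190.1 and 203 in AW. It was at 247, 275 and 199 in IM and at 259, 191 and 216 in AM, and all groups overlapped. The genotype difference was 0.11 (95% interval -0.0887 to 0.313, adjusted p = 0.516 in limma) and the activity change -0.10 (95% interval -0.299 to 0.103, adjusted p = 0.505 in limma).

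Smad2 was at 11.7, 13.8 and 13.7 normalized reads in IW and at 13.5, 13.2 and 11.3 in AW. The IM mice had 15.6, 13.3 and 14.2 and the AM mice 14.1, 13.01 and 12.3, again with overlap between all groups. The genotype difference was 0.09 (95% interval -0.0732 to 0.253, adjusted p = 0.524 in limma) and the activity change -0.08 (adjusted p = 0.502 in limma). The intervals of both SMAD genes for genotype lay wholly above the Pmepa1 value of -0.80. These are mRNA levels, and the phosphorylation of the SMAD proteins was not measured here.

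**Figure D4:**
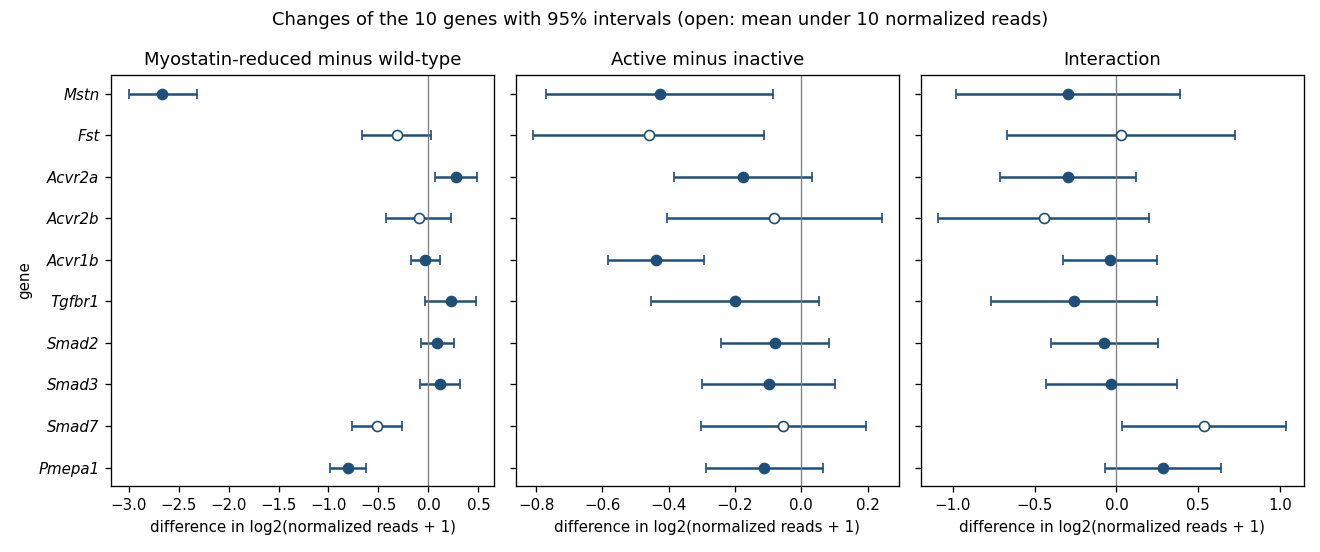
Difference in log2(normalized reads + 1) for each of the 10 genes, for genotype (myostatin-reduced minus wild-type), activity (active minus inactive) and their interaction, with 95% intervals from limma. Filled points are the 7 genes in the fit and open points the 3 genes under a mean of 10, fitted without the filter. The genotype intervals of Mstn, Pmepa1 and Smad7 lie below 0 and that of Acvr2a above 0 (0.0661 to 0.482), and for activity those of Mstn, Fst and Acvr1b lie below 0. The intervals are not adjusted for the number of genes.

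None of the 10 genes had an interaction that passed, and 0 of the 7247 genes in the fit did (297 had an unadjusted p under 0.05 in limma). The median log2 change of the 7 genes in the fit was 0.09 for genotype and -0.18 for activity, beside -0.0049 and -0.02 over all genes in the fit. Over all 10 genes the medians were -0.07 and -0.14, so that for genotype the sign of the median depended on the filter. Averaged over both genotypes, the activity change was below 0 in all 10 genes. Within genotypes it was above 0 for Acvr2b in wild-type mice (0.14) and for Smad7 and Pmepa1 in myostatin-reduced mice (0.21 and 0.03). With all mice weighted equally, the averaged change was called only in Acvr1b among the 7 genes in the fit. Among the low-count genes only Fst, whose place in the table rested on the IW mice, had an unadjusted exact permutation p under 0.05.

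Divided by exon length, the levels of the 10 genes differed by a wide margin. Over the 12 mice, Smad3 was highest with 40.1 normalized reads per kilobase, above 90.8% of the genes in the table. Mstn followed with 22.5 per kilobase over all mice, with 43.3 in the IW, 34.9 in the AW, 7.10 in the IM and 4.76 in the AM mice. Wild-type Mstn was therefore at about the level of Smad3, and that of the floxed mice near the median of the genes in the table, 5.39. These values divide by all 2682 exon bases, of which a deleted copy lacks the 68.2% in exon 3, so they understate the level of any transcripts from deleted copies. Of the receptors, Acvr1b had 12.8, Tgfbr1 9.25, Acvr2a 6.73 and Acvr2b 2.94 normalized reads per kilobase, so the type I receptor genes were above the type II receptor genes. Smad2, at 3.75, was far below Smad3. Pmepa1 had 4.47, Smad7 1.71 and Fst 1.00 normalized reads per kilobase, the last above only 8.43% of the genes in the table. Every gene in the table had a highest group mean of at least 3.0 normalized reads, so these ranks leave out genes below that level.

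Of 73 further genes of the pathway, 52 were in the table and 40 had a mean of at least 10. In the genotype comparison 2 of the 40 were called lower and 0 higher, beside 2.21% and 3.57% of all genes in the fit, with a median log2 difference of -0.02 (-0.0049 over all genes in the fit). Both were type I receptors of the BMP branch, which signals through SMAD1 and SMAD5. Acvr1 was at 35.3, 32.2 and 35.1 normalized reads (IW) and 29.95, 29.1 and 29.0 (AW) in wild-type mice, and at 25.5, 25.0 and 28.0 (IM) and 23.5, 24.9 and 27.0 (AM) in myostatin-reduced mice. Each myostatin-reduced mouse was below each wild-type mouse, with a log2 difference of -0.30 (adjusted p = 0.00889 in limma). For Bmpr1a the difference was -0.32 (adjusted p = 0.0104 in limma), with 125 to 159.9 normalized reads in the wild-type and 98.1 to 129 in the myostatin-reduced mice, which overlapped.

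With activity, 3 of the 40 genes were called lower and 0 higher, where 6.51% of all genes in the fit were called lower and 7.99% higher, so that the lower calls were near the share of all genes. The median log2 change was -0.10, beside -0.02 over all genes in the fit. They were the ligands Tgfb2 (log2 -0.27, adjusted p = 0.0136 in limma) and Tgfb3 (log2 -0.21, adjusted p = 0.0144 in limma), and Ltbp3 (log2 -0.23, adjusted p = 0.0237 in limma), whose product holds latent TGF-beta in the matrix. The Ltbp3 call was lost without IW mouse 2, IW mouse 3, AW mouse 3 or IM mouse 3 (adjusted p from 0.0538 to 0.0648 in limma). With the slow-fibre score as a covariate Tgfb2 was at -0.22 (adjusted p = 0.0903 in limma) and Ltbp3 at -0.19 (adjusted p = 0.128 in limma). Smad4, the shared partner of SMAD2 and SMAD3, was not called (genotype -0.07, activity -0.17, adjusted p = 0.0598 in limma for the latter).

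Of 14 genes listed as known targets of SMAD2 and SMAD3, 11 were in the table and 9 in the fit, and 1 of the 9, Pmepa1, was called lower with genotype and 0 higher, beside 2.21% and 3.57% of all genes in the fit. The targets under a mean of 10 were Smad7, described above, and Junb (log2 -0.34, p = 0.03, exact permutation, unadjusted, and adjusted p = 0.149 in limma without the filter). Among the uncalled genes of the fit, the 3 with the highest means were the matrix genes Col3a1 (genotype 0.0044), Col1a1 (0.05) and Fn1 (0.02). Ctgf, Skil and Klf10, chosen after their values were seen, were not called either and differed in direction. Ctgf was at 19.2, 8.49 and 19.2 normalized reads (IW), 8.91, 16.8 and 12.1 (AW), 7.38, 6.91 and 7.07 (IM), and 5.54, 10.4 and 13.8 (AM), with overlap between the genotypes (log2 -0.66, adjusted p = 0.118 in limma). For Skil the log2 difference was -0.47 (adjusted p = 0.0955 in limma) and for Klf10 it was 0.43 (adjusted p = 0.28 in limma). The remaining targets in the fit, Cdkn1a and Tgfbi, were at -0.31 and -0.07 and not called (adjusted p = 0.19 and 0.698 in limma).

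**Figure D5:**
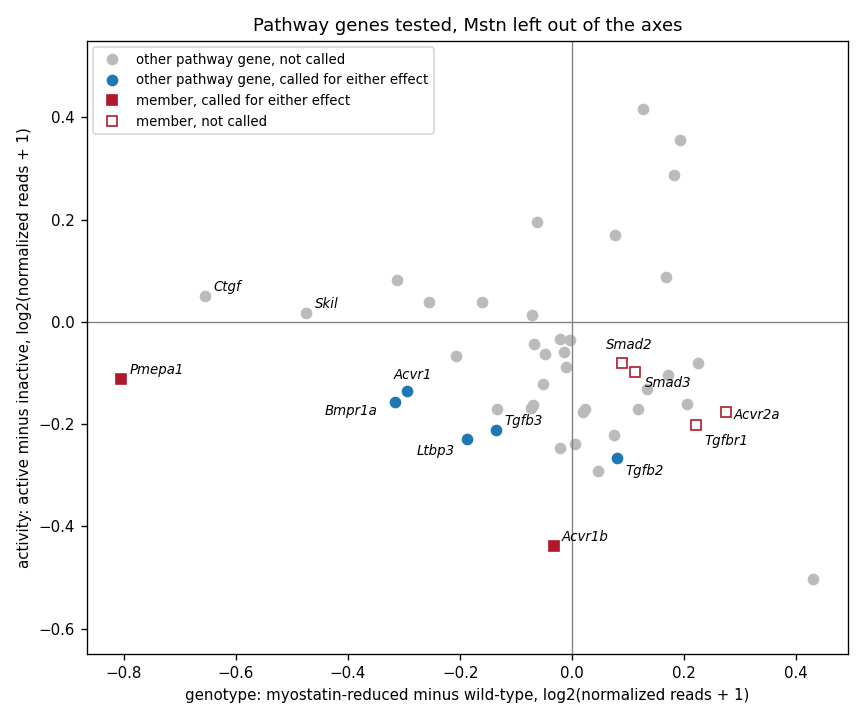
Difference with genotype (horizontal axis) against that with activity (vertical axis), both in log2(normalized reads + 1), for the pathway genes in the fit other than Mstn, which lies off the axis at -2.66 and -0.43. Squares are genes of the 10 and circles the other 40 pathway genes, with calls filled in red or blue. Pmepa1 stands at the far left and Acvr1b among the lowest points, near 0 for genotype.

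Among the ligands under a mean of 10, Gdf11, chosen after its values were seen, differed with genotype in the opposite direction to Mstn and with activity in the same direction. It was at 5.93, 8.95 and 8.87 normalized reads (IW), 6.15, 5.08 and 5.40 (AW), 12.5, 13.1 and 18.8 (IM), and 8.40, 9.17 and 10.4 (AM). The IM mice were above all other mice, and the AM mice overlapped with the IW mice but not with the AW mice. The genotype difference was 0.74 (p = 0.005, the smallest that the exact permutation test can give) and the activity change -0.51 (p = 0.01, exact permutation), both unadjusted. In that test 5.82% of the genes under a mean of 10 were higher with genotype and 4.25% lower with activity at p under 0.05. The other ligands under a mean of 10 were Bmp6, with an activity change of 0.70 (p = 0.025, exact permutation, where 11.1% of such genes were higher) and a genotype difference of 0.13 (p = 0.59, exact permutation), and Tgfb1, with 0.04 and 0.21 (p = 0.85 and 0.33, exact permutation).

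The genes whose pattern over the 12 mice was most like that of Mstn were Lancl1 (Pearson r = 0.975), Dkk3 (r = 0.974) and Pmepa1 (r = 0.95), among 7246 genes. These correlations describe mice that fall into genotype groups. The same genes were nearest to Pmepa1, Lancl1 with r = 0.959, Dkk3 with 0.956 and Mstn with 0.95. Lancl1, which like Mstn lies on chromosome 1, fell by 1.18 and Dkk3 by 2.18 with genotype on the log2 scale (adjusted p = 1.29e-06 for both in limma). Nearest to Acvr1b were Clip1 (r = 0.971), Synm (0.969) and Mylk4 (0.957), which were lower with activity by log2 changes of -0.38, -0.49 and -0.75 (adjusted p = 0.00389, 0.0028 and 0.00264 in limma). Nearest to Smad7 were Arhgap44 (r = 0.908), Tnk2 (0.907) and Rbpj (0.899).

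Once the group means were taken off, the highest positive correlation of Mstn with another of the 10 genes was with Tgfbr1 (r = 0.826 over 12 mice), and that of Pmepa1 was with Mstn (r = 0.613). For Acvr1b it was with Tgfbr1 (r = 0.608), while its correlation with Smad7 was negative and larger in size (r = -0.663). These residuals share library and depth and are given as a description.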

How the data were processed

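RNA-Seq reads (polyA libraries, 65-base single-end) from 12 mice were aligned by the authors to mm9, with CASAVA named in the submitters' processing notes (version not given in the sources used here), and counted over RefSeq exons. Mitochondrial genes were counted apart. The deposited values are a signal, namely normalized read counts per gene after the authors' trimmed-mean scaling. Strand was not stated, so antisense reads cannot be told apart. Whole reads were recovered, within 0.0051 normalized reads, for 72.3% to 74.1% of values per mouse, too few for a count model.

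Values were analysed as log2(value + 1) with limma 3.58.1 in R 4.3.3. The fit used a mean per group, trended eBayes and Benjamini-Hochberg adjustment over the 7247 genes with a mean of at least 10, and calls were made at an adjusted p under 0.05, two-sided. For genes under 10, labels were permuted within the other factor (400 arrangements, exact). The fit was tested on simulated data. The floor of 3 reads was 0.231 to 0.316 normalized reads and covers counting error only. The labels name separate mice but no litter or processing batch. Groups came from genotype and activity labels. Gene models were from GENCODE on NCBIM37 (10116 of 10187 symbols matched). The genes and lists were chosen with earlier results of these data known. All 10 genes were named, with called pathway genes, up to 3 uncalled genes of highest mean per list, and the 3 genes most alike in pattern. Same-numbered mice deviated together only in IM against AM (r from 0.171 to 0.322, and from -0.605 to 0.484 over all pairs of groups). Other pseudocounts, filters, scalings, weights, a replicate block, a slow-fibre covariate and leaving out each mouse were tried. Some results are not reported here.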

Additional observations from a re-analysis of the deposited data

How the results depend on the processing

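The called differences of Mstn and Pmepa1 with genotype and of Acvr1b with activity kept direction and call under every setting in which they had a value (log2 -2.84 to -2.39, -0.84 to -0.68 and -0.46 to -0.37) and without any 1 mouse. With a mean of at least 30 required, 1 of the 10 genes was called with genotype, because Pmepa1 left the fit, and 28 genes were called with activity in wild-type mice (2 in the fit as reported). Sample weights gave 2 of the 10 genes called with activity (Mstn added) and 1740 genes called with activity, 334 with genotype in inactive mice, 415 with activity in wild-type mice and 931 with activity in myostatin-reduced mice. The slow-fibre covariate gave 399, 115, 40 and 175 genes for these 4 comparisons and 29 with genotype in active mice. With the replicate number as a block, 98 genes were called with genotype in inactive mice, 9 with genotype in active mice and 0 with activity in wild-type mice, and Pmepa1 with genotype in active mice was at -0.66 (adjusted p = 0.0622 in limma); the block changed no other call of a named gene. Reversed signs were those of values near 0, the interaction of Acvr1b (0.019 with sample weights, 0.0022 with the covariate) and of Smad3 (0.020 with the covariate). Without 1 mouse at a time, called genes numbered 182 to 573 for genotype, 552 to 1488 for activity, 0 to 1 for the interaction, 23 to 216 and 4 to 18 for genotype in inactive and active mice, and 0 to 198 and 86 to 1098 for activity in wild-type and myostatin-reduced mice. Of the 10 genes, 2 to 4 were then called with genotype and 1 to 3 with activity. Signs also turned without 1 mouse for Acvr1b (genotype -0.069 to 0.0054, interaction -0.10 to 0.036, genotype in inactive mice -0.085 to 0.024 and in active mice -0.12 to 0.023), Smad3 (interaction -0.16 to 0.071), Pmepa1 (activity in myostatin-reduced mice -0.054 to 0.16), Smad7 (activity -0.13 to 0.016) and Acvr2b (genotype -0.21 to 0.020, activity -0.19 to 0.037). The cause was not tested. Acvr2b, Fst and Smad7 had no value under settings that alter the limma fit alone. Over the named genes, 397 of 408 values under other settings and 505 of 552 without 1 mouse kept direction and call. Among the 10 genes, Fst and Acvr2b had the lowest counts, so counting error limits them most.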
